A study of Nilaparvata lugens with 9 samples.

Results

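The change of miRNAs from 1 d to 3 d after emergence was followed in 6 of the 9 small RNA libraries of *Nilaparvata lugens*, the brown planthopper (BPH), a sap-sucking pest of rice. All libraries came from whole bodies of untreated short-winged (SW) female adults, with 3 libraries at 1 d, 3 at 3 d and 3 at 5 d. The question is which miRNAs rise or fall while the ovary begins to mature. The labels name no strain, and according to the study each sample was a pool of insects reared on susceptible rice. Whether the 3 libraries of a phase were separate pools is not stated, so the p-values measure the spread between these libraries, which may be technical. The unit described was the distinct mature sequence. The table held 759 of them among 905 entries, 666 had a read in 1 d or 3 d, and 341 had enough reads to be tested.

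A miRNA is a short RNA that guides an Argonaute protein to messenger RNAs and lowers their translation or stability. Bases 2 to 8 from its 5′ end, the seed, set most of the pairing, so that miRNAs with one seed share many predicted targets. In female insects, juvenile hormone, ecdysteroids and insulin signals drive yolk protein synthesis in the fat body and its uptake by the oocytes, and miRNAs are known to act on each of these steps.

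Names of known miRNAs carry the species of the closest database entry and codes for the bases added or lost at either end or substituted. Predicted candidate (PC) miRNAs carry no such name. Some of them still extend a known miRNA at its 3′ end, as PC-3p-592_10301 extends aga-miR-2c-3p_2ss12TC21GA by an A. The sequences that carry the differences below are shown as deposited in DNA letters, 5′ to 3′, with the seed in capitals. The 10 higher and the first 8 lower ones were chosen by an unadjusted p below 0.05 and no overlap between the phases. For these, the lack of overlap and an exact permutation p of 0.1 follow from the choice and are no further support. In the 10 shown first, every 3 d library was higher than every 1 d library and the unadjusted p was below 0.05:
tca-miR-34-5p_R+3: tGGCAGTGtggttagctggttgt
tca-miR-317-3p_R-3: tGAACACAgctggtggtatctc
tca-miR-2788-3p_R+3_1ss11GA: cAATGCCCttagaaatcccaaa
PC-3p-2920_1945: tGACTAGAcctaatactcgcta
PC-3p-2060_2700: tAAAGCTAgttgaatatgtaaa
PC-3p-576_10624: aTAAAGCTacattaccgaagtc
PC-3p-12814_573: tGTAGTATgtatttctcatc
PC-3p-99602_71: tCTGTTGTtatcatgtggtgg
PC-3p-63800_122: tAACTAGAtcccgacacaaca
PC-3p-112229_61: gCGGAAACggaccatggaa
and these had a negative log2 fold change at an unadjusted p below 0.05, the first 8 without overlap between the phases and the last 4 with overlap:
tca-miR-9a-5p_R+1: tCTTTGGTtatctagctgtatg
tca-miR-9a-3p_R+3_1ss18GA: aTAAAGCTaggttaccgaagtta
dme-miR-193-3p_2ss10AG22CG: tACTGGCCtgctaagtcccaag
PC-5p-24585_327: cGGGACTTggtggtatagttgg
tca-miR-137-3p_L-1R+1_1ss18AG: tATTGCTTgagaatacgcgtag
tca-miR-275-3p: tCAGGTACctgaagtagcgcgcg
dme-miR-276b-3p_2ss10AC21CT: tAGGAACTtcataccgtgcttt
tca-miR-125-5p_R-1_1ss16CT: tCCCTGAGaccctaatttgtg
tca-miR-263a-5p_R-2: aATGGCACtggaagaattcacg
tca-miR-315_R+1: tTTTGATTgttgctcagaaagcc
tca-miR-100-5p_R-2: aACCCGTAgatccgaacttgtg
tca-let-7-5p_R+1: tGAGGTAGtaggttgtatagt
The seed TAAAGCT was the only one present in both lists. It was shared by tca-miR-9a-3p_R+3_1ss18GA and PC-3p-576_10624, whose first 22 bases differ by G10C, G11A and T22C, counted from 1 at the 5′ end with the base of miR-9a-3p first.

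A library held from 972506 to 3184052 reads over the listed sequences. The shallowest library, 1 d replicate 2, also stood apart in composition. There, 10 tested sequences had at least 10 reads and a level over 3 times that of every other library, and together they took 7.04% of its reads against 0.362% to 0.935% elsewhere. Of these 10, 9 were known miRNAs of the let-7, miR-100, miR-125, miR-10, miR-92 and miR-96 families, which vertebrates carry as well, and 6 had no position on a genome scaffold. Over all 341 tested, 126 were known and 27 had no position. Sequences without a scaffold position held 5.12% of the reads of this library and 0.607% to 0.829% in the other 8. The source of these reads was not tested. For the edgeR counts over all tested sequences and the named sequences with an unadjusted p below 0.05, values are given with and without 1 d replicate 2.

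Levels are given as reads scaled to a common library size with TMM factors (CPM), in which 1 read was worth 0.300 to 1.23 CPM. In edgeR's quasi-likelihood test with Benjamini-Hochberg adjustment, 0 of 341 sequences (0% of those tested) passed an adjusted p of 0.05 in 3 d vs. 1 d, and the smallest adjusted p was 0.124. At an unadjusted p below 0.05 there were 29 sequences, 10 higher (2.93%) and 19 lower (5.57%) in 3 d. DESeq2 called 6 (1.76%), 3 in each direction, and limma on log2 of the CPM plus 1 or 10 called 0. Without 1 d replicate 2, edgeR called 0 of 392, and an unadjusted p below 0.05 was found for 9 higher (2.3%) and 9 lower (2.3%). Of the 29 sequences, 6 higher and 8 lower had an unadjusted p below 0.05 in both fits.

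The split between higher and lower moved with the scaling. With library totals in place of TMM factors it was 18 higher and 8 lower, with upper-quartile factors 13 and 12, and the median log2 fold change of all tested sequences shifted from 0.06 to 0.31 and 0.22. Levels of all 3 libraries of 3 d lay above those of 1 d in 22 sequences (6.45%) and below them in 12 (3.52%), and without 1 d replicate 2, where 2 libraries of 1 d are easier to clear, in 32 (9.38%) and 31 (9.09%). An unchanged sequence would separate one way or the other with a probability of 0.1, the smallest 2-sided exact permutation p of 3 against 3 libraries. The 22 and 12 sequences together did not exceed that share. Without 1 d replicate 2 the probability is 0.1 in each direction, and neither share exceeded it. The 95% interval of the log2 fold change lay within 1 on both sides for 51 of the 341 sequences, so that for most of them a change of 2-fold was not excluded at this depth and spread.

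**Figure D1:**
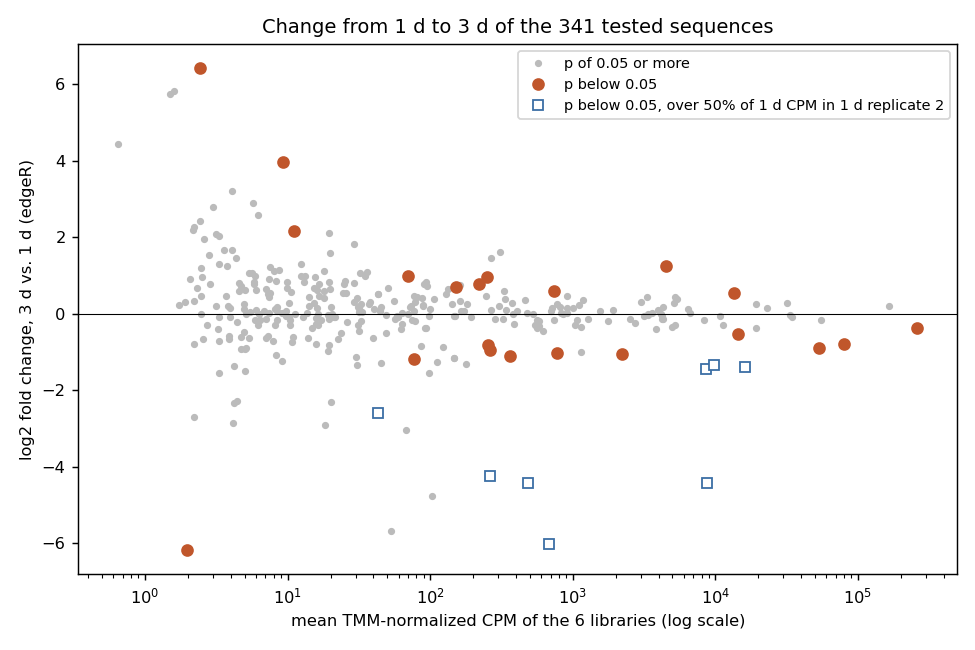
Log2 fold change in 3 d vs. 1 d (edgeR, vertical axis) against the mean TMM-normalized CPM of the 6 libraries (log scale) for the 341 tested sequences. Filled circles and open squares mark the 29 sequences with an unadjusted p below 0.05. The open squares mark those with over 50% of their summed 1 d CPM in 1 d replicate 2. All 8 of these were lower in 3 d, a direction that such a share favours.

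tca-miR-34-5p_R+3, a miRNA tied to ageing of the adult brain in Drosophila, had the smallest p. Its level was 2699, 2332 and 2941 CPM in the 1 d libraries and 5269, 6937 and 6774 CPM in the 3 d libraries. The phases did not overlap, and the mean went from 2657 ± 307 to 6327 ± 920 CPM (SD, n = 3 libraries, exact permutation test, 2-sided, p = 0.1, the smallest that 3 against 3 allow). The log2 fold change was 1.25 (SE 0.23, 95% interval 0.73 to 1.77), with an unadjusted p of 0.000363 and an adjusted p of 0.124 from edgeR. DESeq2 called it at an adjusted p of 8.3e-05. Without 1 d replicate 2 the log2 fold change was 1.18 (edgeR adjusted p = 0.567), and without 3 d replicate 1 it was 1.37 and called (edgeR adjusted p = 0.0366). It was also called with library totals as scaling (edgeR adjusted p = 0.0436). At 5 d the level was 11579, 8107 and 8084 CPM, above all 3 d libraries.

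Its precursor starts at position 120503 on the minus strand of scaffold NW_019106660.1. The assembly was not given in the sources used here, and no gene annotation for these scaffolds was used. The scaffold also carries tca-miR-277-3p, which in Drosophila limits the breakdown of branched-chain amino acids, at 128008, and tca-miR-317-3p_R-3 at 143301, all on the same strand. These are members of one cluster in Drosophila. PC-3p-2015_2755, a 3p entry, starts 72 bases from miR-34-5p on the same strand. They may be arms of one hairpin, which was not tested, and are then not independent changes.

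tca-miR-317-3p_R-3 had 10460, 11038 and 11764 CPM in 1 d and 15632, 16469 and 16122 CPM in 3 d. By the rule of choice, no 3 d library fell into the range of 1 d. The spread within each phase was small, at 11087 ± 654 and 16075 ± 421 CPM (SD, n = 3, exact permutation test, p = 0.1). Its log2 fold change was 0.54 (SE 0.18, edgeR unadjusted p = 0.0141, adjusted p = 0.495) and 0.54 without 1 d replicate 2. At 5 d its libraries had between 19515 and 26299 CPM. tca-miR-277-3p had 2154, 2569 and 3409 CPM in 1 d and 2207, 4265 and 3504 CPM in 3 d. Here the phases overlapped, and the log2 fold change of 0.29 (95% interval -0.37 to 0.96) did not pass the test (edgeR unadjusted p = 0.341). It was 0.27 without 1 d replicate 2.

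Within a library, the ratio of miR-34 to miR-277 reads needs no scaling. It was 1.25, 0.908 and 0.863 in 1 d and 2.39, 1.63 and 1.93 in 3 d, without overlap (exact permutation test, 2-sided, p = 0.1). The ratio of miR-317 to miR-277 was 3.45 to 4.86 in 1 d and 3.86 to 7.08 in 3 d, and overlapped (exact permutation test, p = 0.5). PC-3p-2015_2755, possibly the other arm of miR-34, had 148, 79.9 and 134 CPM in 1 d and 166, 218 and 230 CPM in 3 d. The log2 fold change of PC-3p-2015_2755 was 0.76 (SE 0.38, edgeR unadjusted p = 0.0744), or 0.55 without 1 d replicate 2 (edgeR unadjusted p = 0.181). Its 3 d libraries were all above those of 1 d, and it was chosen after its values were seen, as were these ratios.

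tca-miR-2788-3p_R+3_1ss11GA, of a family found in insects, had 104, 117 and 127 CPM in 1 d and 183.3, 190 and 194 CPM in 3 d. The 3 d libraries lay together and above all of 1 d. The log2 fold change was 0.70 (SE 0.29, edgeR unadjusted p = 0.0356, adjusted p = 0.512), and without 1 d replicate 2 it was 0.72 with an unadjusted p of 0.0706 from edgeR. At 5 d its level was 464, 293 and 455 CPM, above all 3 d libraries.

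Among PC miRNAs, PC-3p-2920_1945 had 154, 162 and 196 CPM in 1 d and 246, 333 and 408 CPM in 3 d. Its log2 fold change was 0.95 (SE 0.32, edgeR unadjusted p = 0.0165), and 0.93 without 1 d replicate 2 (edgeR unadjusted p = 0.0381). PC-3p-2060_2700, with 145, 146 and 196 CPM in 1 d and 243, 284 and 305.9 CPM in 3 d, starts 8001 bases away on the plus strand of scaffold NW_019105738.1. Both had 3 d libraries that were all above those of 1 d. The log2 fold change of PC-3p-2060_2700 was 0.77 (SE 0.29, edgeR unadjusted p = 0.0259), and 0.72 without 1 d replicate 2 with an unadjusted p of 0.0681 from edgeR. Another PC miRNA between them, PC-3p-91528_79, had 6.15 to 10.5 CPM in 1 d and 9.01 to 28.9 CPM in 3 d and overlapped (edgeR unadjusted p = 0.124, and 0.241 without 1 d replicate 2).

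PC-3p-2920_1945 carries the seed of the miR-279 and miR-996 family, known in Drosophila for restricting the cells that sense CO2 and limiting JAK/STAT signalling. Among the 14 tested sequences with this seed it was the only one with an unadjusted p below 0.05. The most abundant of them, PC-3p-31_242819, had 10667, 21354 and 20766 CPM in 1 d and 22002, 21103 and 19371 CPM in 3 d. These overlapped, and its log2 fold change was 0.24 (95% interval -0.72 to 1.21).

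PC-3p-576_10624 had 569, 572 and 623 CPM in 1 d and 1023, 931 and 729 CPM in 3 d. All 3 d libraries were higher, with a log2 fold change of 0.61 (SE 0.27, edgeR unadjusted p = 0.0483), and 0.60 without 1 d replicate 2, where the unadjusted p of edgeR was 0.0885. It shares its seed with tca-miR-9a-3p_R+3_1ss18GA, which had 720, 374 and 406 CPM in 1 d and 293, 186 and 215 CPM in 3 d. The ratio of PC-3p-576_10624 to miR-9a-3p reads within a library was 0.789, 1.53 and 1.53 in 1 d and 3.50, 5.02 and 3.40 in 3 d, without overlap (exact permutation test, 2-sided, p = 0.1). Since all 3 d libraries were higher in the former and lower in the latter, the ratio had to separate, and its p adds no test. Of the 6 tested sequences that carry this seed, miR-9a-3p alone had a negative log2 fold change.

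At low levels, PC-3p-99602_71 had 4.52, 0 and 6.83 CPM in 1 d and 18.2, 19.1 and 18.3 CPM in 3 d. It rested on 29 reads in 1 d and 126 in 3 d, with a log2 fold change of 2.17 (SE 0.80, DESeq2 adjusted p = 0.0306, edgeR adjusted p = 0.495) and 1.71 without 1 d replicate 2. PC-3p-63800_122 had 0, 0 and 2.81 CPM in 1 d against 24.7, 18.6 and 9.61 CPM in 3 d (7 and 106 reads), with an unadjusted edgeR p of 0.0128, and of 0.0249 without 1 d replicate 2. PC-3p-12814_573 had 30.7 to 69.8 CPM in 1 d and 79.6 to 115 CPM in 3 d. Its log2 fold change was 0.97 (edgeR unadjusted p = 0.0376), and 0.76 without 1 d replicate 2 (edgeR unadjusted p = 0.106). In each of these the 3 d libraries were all above those of 1 d.

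PC-3p-112229_61 was the only sequence with no read in one phase and reads in every library of the other, at least 30 in sum. It had 0 reads in 1 d and 36 in 3 d, or 3.90, 4.13 and 6.60 CPM. With 3 reads over the 1 d libraries as the limit that a count of 0 allows, its level in 3 d was 10.5-fold that limit. The counting error of the 36 reads was left out, so 10.5 is not a lower bound. The edgeR interval of its log2 fold change of 6.42 ran from 2.90 to 9.94. The sequence was chosen for its 0 reads in 1 d. DESeq2 called it (adjusted p = 0.0245), and edgeR did not (adjusted p = 0.406, unadjusted p = 0.00332, and 0.00593 without 1 d replicate 2). Reads carry no molecular identifiers, so the limit of 3 reads does not cover amplification.

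**Figure D2:**
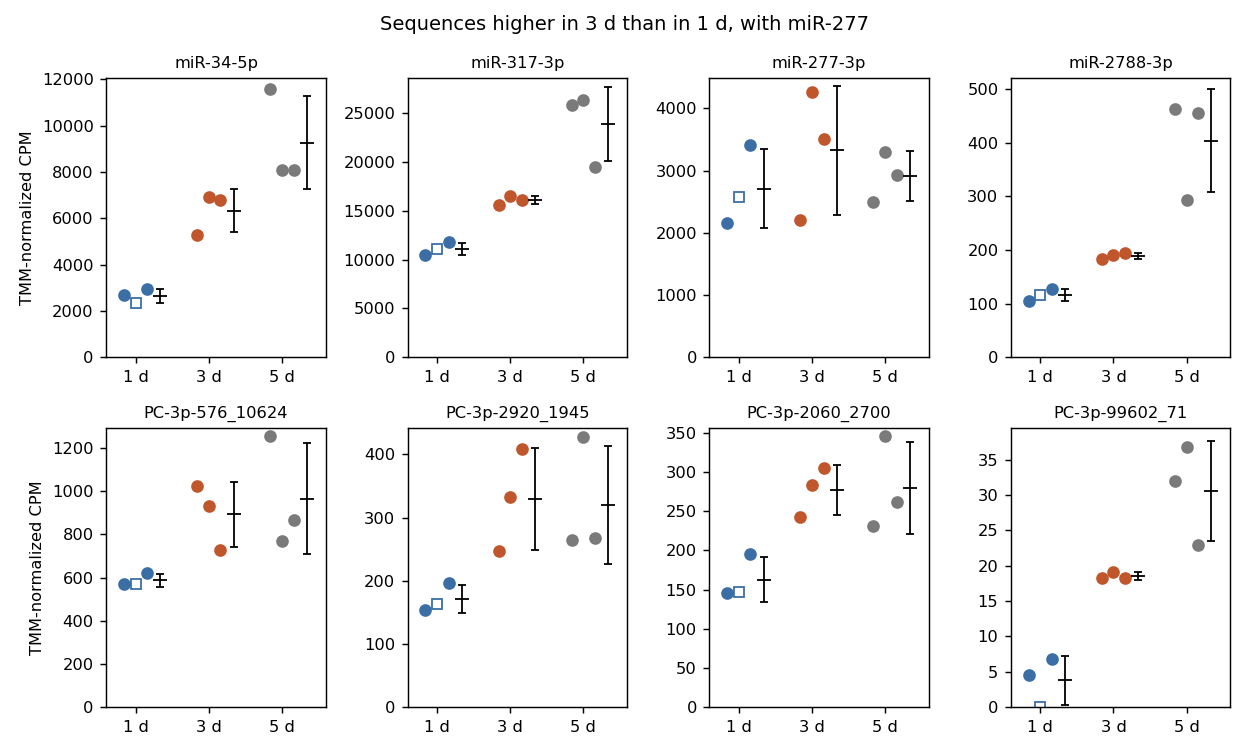
TMM-normalized CPM of 8 sequences in each library by phase (1 d, 3 d and 5 d), with the mean and SD of the 3 libraries in black. The open square is 1 d replicate 2. For miR-34-5p the 3 d libraries lie between 5269 and 6937 CPM and those of 1 d between 2332 and 2941 CPM, while miR-277-3p overlaps between 1 d and 3 d.

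tca-miR-9a-5p_R+1, which in Drosophila keeps the number of sense organ precursors in check, had the smallest p among the lower ones. Its level was 62458, 62414 and 81858 CPM in 1 d and 34302, 36794 and 40175 CPM in 3 d. The highest 3 d library was below the lowest of 1 d, and the mean went from 68910 ± 11213 to 37090 ± 2948 CPM (SD, n = 3, exact permutation test, 2-sided, p = 0.1). The log2 fold change was -0.89 (SE 0.23, edgeR unadjusted p = 0.00358, adjusted p = 0.406), and -0.95 without 1 d replicate 2. DESeq2 called it at an adjusted p of 0.0245. At 5 d it had 17469, 30955 and 25114 CPM, below all 3 d libraries.

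The opposite arm of its hairpin, tca-miR-9a-3p_R+3_1ss18GA, had a log2 fold change of -1.12 (SE 0.40, edgeR unadjusted p = 0.0203, adjusted p = 0.495), and the value was -1.28 without 1 d replicate 2. Both precursor entries start at 275898 on the plus strand of scaffold NW_019105825.1. The ratio of 5p to 3p reads was 86.7, 167 and 201 in 1 d and 117, 198 and 187 in 3 d, and overlapped (exact permutation test, p = 0.7). Both arms were lower in every 3 d library.

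The ratio of miR-34-5p to miR-9a-5p reads needs no scaling either. For each miR-9a-5p read there were 0.0432, 0.0374 and 0.0359 miR-34-5p reads in 1 d and 0.154, 0.189 and 0.169 in 3 d, a 4.38-fold difference of the means (exact permutation test, p = 0.1). As miR-34-5p was higher and miR-9a-5p lower in every 3 d library, this ratio could not overlap, and its p adds no test. At 5 d the ratio was 0.663, 0.262 and 0.322.

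dme-miR-193-3p_2ss10AG22CG had 927, 1307 and 901 CPM in 1 d and 715, 401 and 427 CPM in 3 d. The phases did not overlap, with a log2 fold change of -1.02 (SE 0.34, edgeR unadjusted p = 0.0135, adjusted p = 0.495) and -0.82 without 1 d replicate 2. PC-5p-24585_327, whose entry starts 82 bases from miR-193 on the same strand of scaffold NW_019105609.1, had 102, 117 and 99.3 CPM in 1 d and 46.2, 35.7 and 59.1 CPM in 3 d. Every 3 d library was lower, with a log2 fold change of -1.17 (SE 0.37, edgeR adjusted p = 0.495, DESeq2 adjusted p = 0.0245) and -1.09 without 1 d replicate 2. Both entries carry a hairpin energy of -42.9, one on the 5p and the other on the 3p arm. They may be arms of one hairpin, which was not tested, and are then not independent changes.

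The scaffold of miR-193 also carries miR-2788, at a distance of 8473 bases on the same strand. This neighbour stood higher in 3 d. The ratio of miR-2788 to miR-193 reads was 0.112, 0.0894 and 0.141 in 1 d and 0.256, 0.474 and 0.454 in 3 d, without overlap (exact permutation test, 2-sided, p = 0.1), and 1.06, 0.558 and 1.51 at 5 d. Between 1 d and 3 d it could not overlap, because miR-2788 was higher and miR-193 lower in every 3 d library, so its p adds no test.

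tca-miR-137-3p_L-1R+1_1ss18AG, a miRNA of nerve cells, had 400, 306.2 and 267 CPM in 1 d and 179, 174 and 199 CPM in 3 d. The phases did not overlap, and the log2 fold change was -0.82 (SE 0.30, edgeR unadjusted p = 0.0222) and -0.85 without 1 d replicate 2. aga-miR-124_R-2, a further miRNA of nerve cells, had 463 to 863 CPM in 1 d and 402 to 1444 CPM in 3 d and overlapped. In whole bodies, fewer cells of a type and less RNA per cell cannot be told apart.

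tca-miR-275-3p, needed for egg development in the mosquito Aedes aegypti, had 17780, 17655 and 15480 CPM in 1 d and 12468, 11379 and 11298 CPM in 3 d. No library overlapped, and the log2 fold change was -0.53 (SE 0.21, edgeR unadjusted p = 0.0329, adjusted p = 0.512), or -0.50 without 1 d replicate 2 (edgeR unadjusted p = 0.0703). At 5 d replicate 1 had 16993 CPM and the other libraries 10730 and 11236 CPM. tcf-miR-305, 2183 bases away on the same scaffold and strand, had 3611 to 4700 CPM in 1 d and 3355 to 4677 CPM in 3 d. Its log2 fold change was -0.06 (95% interval -0.54 to 0.43), or -0.16 without 1 d replicate 2.

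tca-miR-263a-5p_R-2, which protects sensory bristle cells in Drosophila, had 4958, 1871 and 2203 CPM in 1 d and 1150, 1184 and 2001 CPM in 3 d. Here 1 d replicate 2 lay within the range of 3 d, and without it the phases did not overlap. The log2 fold change of -1.06 (SE 0.43, edgeR unadjusted p = 0.0345) became -1.30 without 1 d replicate 2 and -0.58 without 1 d replicate 1. tca-miR-315_R+1, an activator of Wingless signalling in Drosophila, behaved alike, with 471, 188 and 389 CPM in 1 d and 148, 209 and 181 CPM in 3 d (edgeR log2 fold change -0.96, and -1.25 without 1 d replicate 2).

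**Figure D3:**
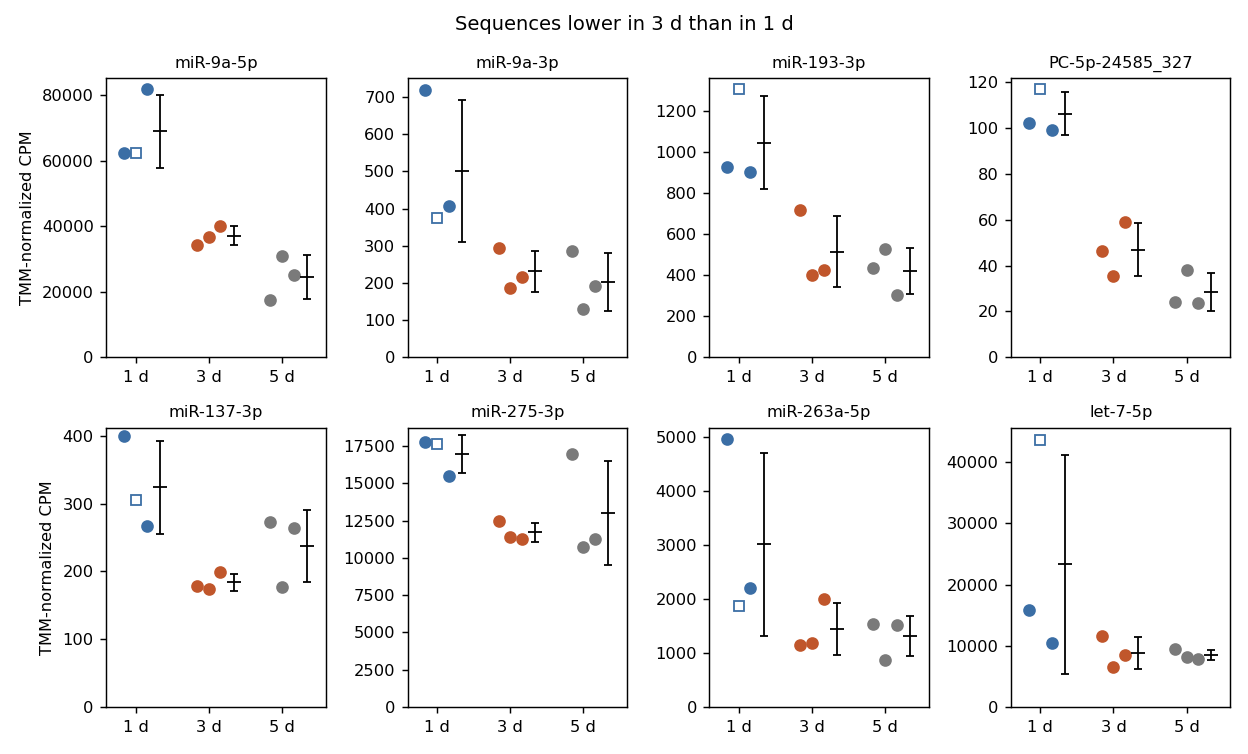
TMM-normalized CPM of 8 sequences in each library by phase, with the mean and SD of the 3 libraries in black and 1 d replicate 2 as an open square. For miR-9a-5p the 3 d libraries reach at most 40175 CPM and the lowest of 1 d has 62414 CPM, and for let-7-5p the value of 43683 CPM in 1 d replicate 2 stands far above the rest.

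The let-7, miR-100 and miR-125 miRNAs, made from one transcript in Drosophila and tied there to the ecdysone-timed end of metamorphosis, had 6 of the 19 lower sequences. tca-let-7-5p_R+1 had 15807, 43683 and 10414 CPM in 1 d and 11518, 6456 and 8462 CPM in 3 d. tca-miR-100-5p_R-2 had 112952, 129244 and 62921 CPM in 1 d and 53032, 52036 and 71248 CPM in 3 d. tca-miR-125-5p_R-1_1ss16CT had 7740, 26814 and 7577 CPM in 1 d and 3560, 6864 and 6164 CPM in 3 d, and only here did the phases not overlap.

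Their log2 fold changes were -1.40, -0.79 and -1.34 with all libraries (edgeR unadjusted p = 0.0158, 0.0201 and 0.036) and -0.57, -0.57 and -0.46 without 1 d replicate 2 (0.0886, 0.0824 and 0.304). Variants of these families showed it more strongly. pte-let-7-5p_1ss12GA, which DESeq2 called with an adjusted p of 0.0245, had 47788 CPM in 1 d replicate 2 and 1913 and 291 CPM in the other 1 d libraries, against 1571, 341 and 411 CPM in 3 d. Its log2 fold change went from -4.43 to -0.52 without that library. For api-miR-100_R-1_1ss16AT it went from -6.02 to 0.39, and for tcf-miR-125_1ss22AT from -4.42 to 0.86.

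Of 8 tested sequences of the let-7, miR-100 and miR-125 families, 6 were lower and 0 higher at an unadjusted p below 0.05, beside 5.57% lower over all tested. The 6 became 0 without 1 d replicate 2. Their median log2 fold change was -2.22, beside 0.06 over all tested sequences, and -0.40 without 1 d replicate 2. tca-miR-10-5p, which lies in the Hox complex of insects, had 8907, 23862 and 5106 CPM in 1 d and 2473, 5235 and 6111 CPM in 3 d. These overlapped, and its log2 fold change went from -1.45 to -0.60 without 1 d replicate 2 (edgeR unadjusted p = 0.036 and 0.265).

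**Figure D4:**
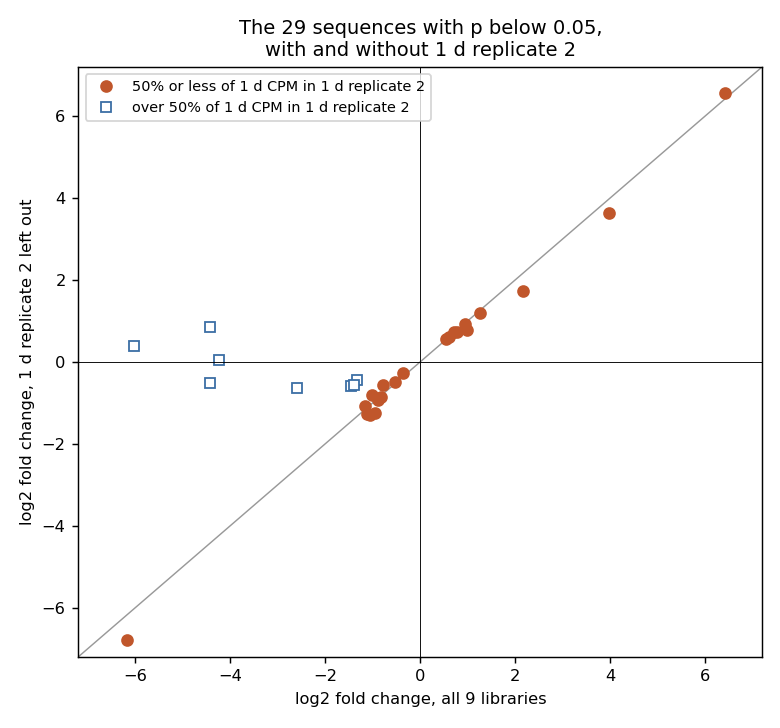
Log2 fold change in 3 d vs. 1 d of the 29 sequences with an unadjusted p below 0.05, with all 9 libraries (horizontal axis) and with 1 d replicate 2 left out (vertical axis). The grey line marks equal values. Filled circles stay near it, and the open squares, with over 50% of their summed 1 d CPM in 1 d replicate 2, move towards or past 0.

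dme-miR-276b-3p_2ss10AC21CT, linked to olfactory memory in Drosophila and to even hatching of eggs in locusts, was the most abundant sequence. It had 255131, 321815 and 306380 CPM in 1 d and 239692, 232576 and 213862 CPM in 3 d. The phases did not overlap, and the log2 fold change was -0.36 (SE 0.16, edgeR unadjusted p = 0.0497, adjusted p = 0.572), or -0.28 without 1 d replicate 2 (edgeR unadjusted p = 0.12). As a plain share of the reads it was 24.2%, 26.9% and 28.2% in 1 d and 28.0%, 23.2% and 22.4% in 3 d, and overlapped (exact permutation test, p = 0.4).

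Of the other highly abundant sequences, several had narrow intervals. For tca-miR-1-3p, the miRNA of muscle, the log2 fold change was -0.17 (95% interval -0.56 to 0.22), with 55818 to 61905 CPM in 1 d and 47091 to 56419 CPM in 3 d. For aga-miR-2c-3p_2ss12TC21GA, of a family that lowers cell death genes in Drosophila, it was -0.09 (95% interval -0.46 to 0.28). tca-miR-8-3p, which acts on growth through the fat body in Drosophila, had 164485, 113056 and 185205 CPM in 1 d and 119787, 226933 and 188140 CPM in 3 d. The spread within its phases was wide, and the interval of its log2 fold change ran from -0.47 to 0.89. Its opposite arm, lmi-miR-8-5p, had 0.13 (95% interval -0.34 to 0.61).

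tca-miR-14-3p, an inhibitor of cell death and fat storage in Drosophila, had a log2 fold change of -0.03 (95% interval -0.80 to 0.74). PC-5p-15_408936, the most abundant PC miRNA, had 36971, 21647 and 27180 CPM in 1 d and 19406, 43276 and 41046 CPM in 3 d, which overlapped. None of these 6 passed the test (edgeR adjusted p of 1.00 for each). With library totals as scaling, the log2 fold changes of tca-miR-1-3p, aga-miR-2c-3p_2ss12TC21GA and tca-miR-14-3p were positive.

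By family, the miR-34, miR-277 and miR-317 sequences had 2 of 5 tested higher at an unadjusted p below 0.05 and 0 lower, beside 2.93% higher and 5.57% lower over all tested, with a median log2 fold change of 1.25 and of 1.18 without 1 d replicate 2, where 2 were higher as well. Their summed level was 15331, 15945 and 18140 CPM in 1 d and 23114, 27767 and 26484 CPM in 3 d, without overlap, a 1.57-fold difference of the means. The median was the value of tca-miR-34-5p_R+3 itself in both fits, while tca-miR-317-3p_R-3 had 0.54 and tca-miR-277-3p 0.29. The values above it were those of hme-miR-34_R+3 and ame-miR-317-3p_1ss24GT, with means of 7.04 and 9.74 CPM in 1 d (edgeR unadjusted p = 0.172 and 0.0650). Of 8 tested sequences of miR-9 and miR-306, 2 were lower and 0 higher, with or without 1 d replicate 2. The miR-9 sequences summed to between 63276 and 82766 CPM in 1 d and between 35264 and 40824 CPM in 3 d, and nearly all of this was tca-miR-9a-5p_R+1. Over the 7 tested miR-9 sequences the median log2 fold change was -0.08, and 0.06 without 1 d replicate 2. aae-miR-306-5p_2ss1TA20CG stood higher in every 3 d library, at 7861, 5198 and 4838 CPM against 4371 to 4579 CPM (edgeR unadjusted p = 0.188).

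Of the 12 tested sequences of miR-275, miR-305, miR-184 and miR-281, named in egg development of flies or mosquitoes, 1 was lower and 0 higher, with a median of -0.04, beside 5.57% lower over all tested. Without 1 d replicate 2, 0 were lower and the median was -0.15. The summed level of miR-184 was 10641 to 16823 CPM in 1 d and 9828 to 14195 CPM in 3 d, and that of miR-281 was 9417 to 11064 CPM and 10579 to 11381 CPM, both with overlap.

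The muscle list, miR-1 and miR-133, had 0 of 7 tested sequences past an unadjusted p of 0.05 and summed to 59302 to 66437 CPM in 1 d and 51071 to 59738 CPM in 3 d. The neural list, with miR-124, miR-137, miR-210, miR-932 and miR-7, had 1 lower of 6 with or without 1 d replicate 2, which was miR-137, and its most abundant member, tca-miR-7-5p_R-1, had a log2 fold change of -0.30 (95% interval -1.33 to 0.73). In the families of miR-2, miR-13 and miR-71, of miR-14, of miR-1175 and miR-750, and of miR-8, 0 of 19 tested sequences were past an unadjusted p of 0.05 in either direction. The miR-263 and miR-96 family had 1 lower of 3, miR-276 had 1 of 6 and miR-92 had 1 of 3, beside 5.57% over all tested. These counts were 2, 0 and 0 without 1 d replicate 2. The Hox list, with miR-10, miR-993 and iab-8, had 2 lower of 8, both of miR-10, and the miR-193 and miR-2788 sequences had 1 higher and 1 lower of 3. Without 1 d replicate 2, 0 of the Hox list were lower, and 0 of the latter were higher and 1 lower.

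**Figure D5:**
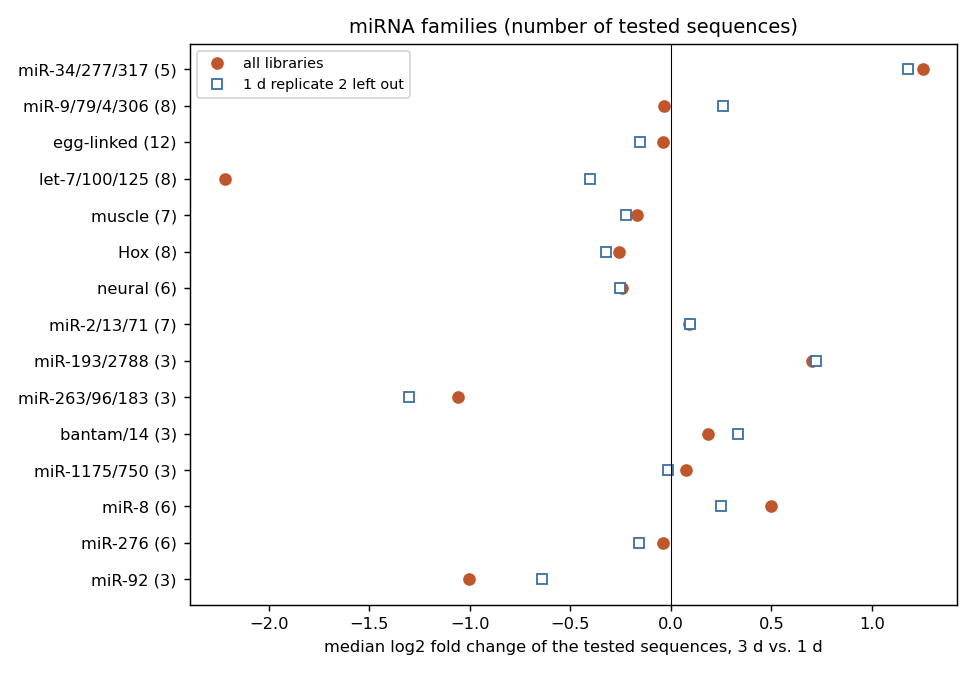
Median log2 fold change in 3 d vs. 1 d of the tested sequences of each family, with their number in brackets, over all libraries (filled circles) and without 1 d replicate 2 (open squares). The egg-linked list holds miR-275, miR-305, miR-184 and miR-281, the Hox list miR-10, miR-993 and iab-8, the muscle list miR-1 and miR-133, and the neural list miR-124, miR-137, miR-210, miR-932 and miR-7. The median of let-7, miR-100 and miR-125 lies at -2.22 and moves to -0.40, and that of miR-34, miR-277 and miR-317 moves from 1.25 to 1.18.

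When reads were summed over sequences with one seed, 250 of 580 seeds were tested and 0 (0%) passed an adjusted p of 0.05 in edgeR. An unadjusted edgeR p below 0.05 was found for 11 higher and 11 lower, and DESeq2 called 7, all counted with 1 d replicate 2 included. The smallest adjusted p was that of GGCAGTG, the miR-34 seed, at 0.0811, with a log2 fold change of 1.33 (SE 0.25) and 1.19 without 1 d replicate 2. Next came the seed of PC-3p-112229_61 and ACTGGCC, that of miR-193, at -0.98 with all libraries (SE 0.28, edgeR unadjusted p = 0.00555).

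The share of each arm in a hairpin was tested with limma on the log2 ratio of 5p to 3p reads in 30 hairpins, and 0 (0%) passed at an adjusted or unadjusted p below 0.05. The same count was 0 without 1 d replicate 2 (smallest limma p 0.104). The smallest p was that of the pair tca-miR-9a-5p_L-1R+2_1ss12CG and tca-miR-9b-3p_1ss10GT, with a log2 ratio of 2.54 ± 0.42 in 1 d and 1.82 ± 0.44 in 3 d (SD, n = 3, limma unadjusted p = 0.122). The pairs of miR-10 and miR-133 followed, at limma unadjusted p = 0.174 and 0.189. In 39 pairs of sequences in which the longer adds 1 to 4 bases to the 3′ end of the shorter, the log2 ratio of longer to shorter overlapped between 1 d and 3 d in every pair. The differences ran from -0.84 to 2.26. The median of 0 was that of the pair bmo-mir-6497-p3_1ss2TC_2 and bmo-mir-6497-p3_1ss2TC_1, whose counts were equal in every library, so that its overlap was fixed.

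Of the 10 higher ones, 7 were PC miRNAs, and of the 19 lower ones 17 were known miRNAs, beside 215 PC and 126 known miRNAs among all tested. In 8 of the 19 lower ones, 1 d replicate 2 held most of the summed 1 d CPM, beside 50 of the 341 tested. Without that library, 7 known miRNAs of the 341 were lower and 2 higher at an unadjusted edgeR p below 0.05. Of the PC miRNAs, 2 were then lower and 6 higher. With all libraries, the median level of the 10 higher and the 19 lower ones was 186 and 780 CPM, beside 31.4 CPM over all tested. A 5′ terminal T was present in 7 of 10 and 12 of 19, beside 188 of 341, and a length of 22 nt in 5 and 12, beside 115. The median log2 fold change was 0.18 over the PC and -0.09 over the known miRNAs tested, and 0.17 and -0.12 without 1 d replicate 2. The classes follow the deposited names, and some PC miRNAs are longer forms of known ones.

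PC miRNAs took 9.16%, 8.20% and 9.12% of the reads in 1 d and 9.62%, 12.4% and 11.8% in 3 d. These did not overlap, with or without 1 d replicate 2 (exact permutation test, 2-sided, p = 0.1 with all 3 libraries of 1 d). The summed TMM-normalized level of the tested PC miRNAs did overlap, at 84115 to 98699 CPM in 1 d and 82007 to 123527 CPM in 3 d (exact permutation test, p = 0.5). Reads of 22 nt made up 68.0% to 71.9% in 1 d and 59.6% to 69.8% in 3 d, and those of 23 nt 14.8% to 23.9% and 20.5% to 32.0%. Both overlapped (exact permutation test, p = 0.3 for each).

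PC-3p-186037_30 had the most negative log2 fold change of the 19, -6.18 (-6.80 without 1 d replicate 2), on 30 reads in 1 d, of which 1 d replicate 2 held 0, and 0 in 3 d. It was chosen after its values were seen, and no bound on its change was computed.

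PC-3p-71007_108 had 21.1, 41.8 and 37.8 CPM in 1 d and 20.8, 0 and 0 CPM in 3 d, where all 32 reads of the phase stood in replicate 1. edgeR did not call it with all libraries (adjusted p = 0.877) and called it without 3 d replicate 1 (adjusted p = 0.0366).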

How the data were processed

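The study describes total RNA from pooled short-winged females of each of the 3 phases and small RNA libraries. The labels give the protocol of a poly(A) mRNA library instead. Reads were filtered and matched to miRBase and to BPH scaffolds (assembly not given in the sources used here) by the authors, who used ACGT101-miR. The deposited raw columns hold estimated counts of reads per sequence, unscaled, and 224 of the 759 sequences have values that are not whole. The reason for this was not tested. In the deposited normalized columns, a signal, the raw values were multiplied by 1 factor for each library, checked to be constant (0.566 to 2.49). The hairpin energy score and sequence length in the deposited table are the authors' own.

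Entries with one sequence were counted once, estimated counts were rounded, and edgeR 4.0.16 (legacy quasi-likelihood F-test, TMM, filterByExpr by phase, all 9 libraries, phase as the only term, common biological coefficient of variation 0.692) was run in R 4.3.3 with limma 3.58.1 and DESeq2 1.42.0 as alternatives. Exact permutation tests and tables used Python 3.11.15, pandas 2.3.3 and numpy 2.4.6. Standard errors came from the F statistic. Sequences named were up to 10 with the largest rise and fall at an unadjusted p below 0.05 without overlap, those called by DESeq2 or without one library, the 10 most abundant, the most abundant of each family, the leading seeds and hairpins, and those with no read in one phase. tca-let-7-5p_R+1, miR-315, miR-277, miR-305, miR-124, miR-306, the other variants, the neighbours and the ratios were chosen after their values were seen. Members, families and lists were chosen with earlier results of these data known. Alternatives were other scalings, filters, tests, units, the replicate number as a block and each library left out. Depth limits and intervals cover counting error or the spread between libraries as stated.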

Additional observations from a re-analysis of the deposited data

How the results depend on the processing

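In 3 d vs. 1 d, edgeR called 0 sequences. The count was 6 with DESeq2, 19 without a filter on low counts and 17 by a 2-group test of the authors' normalized values at an unadjusted p below 0.05 and a log2 fold change over 1 either way, without the study's exclusion of low levels, and it was 1 with known miRNAs only, with library totals and when a phase mean of 10 CPM was required. Leaving out 1 library gave 0 to 2, the 2 without 3 d replicate 1. For seeds the count of 0 became 7 with DESeq2, 1 with DESeq2 size factors and 8 without a filter, and 0 to 2 with 1 library left out, again 2 without 3 d replicate 1. The 29 sequences with an unadjusted p below 0.05 became 56 without a filter, 12 with only 1 d and 3 d and without 1 d replicate 2, and 16 to 52 with 1 library left out (for 1 d, 18 when replicate 2 and 44 when replicate 3 was dropped, and for 3 d, 52 when replicate 1 and 16 when replicate 2 was). The causes were not tested.

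With a replicate block, 0 sequences, 0 seeds and 0 arm ratios were called and 20 sequences had an unadjusted p below 0.05. Deviations from the phase means of same-numbered libraries of 1 d and 3 d had r of -0.19, -0.39 and 0.37 across sequences. Pairs of 1 d and 3 d libraries with different numbers ranged from -0.51 to 0.50. For same-numbered libraries of 3 d and 5 d, r was 0.42, 0.02 and 0.35. What the number stands for is not stated, and these values cannot show whether such libraries share a pool or a batch.

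Of the log2 fold changes of named sequences under the alternatives, 463 kept their direction and side of the threshold, 9 passed it and 22 changed sign. With library totals tca-miR-1-3p was at 0.070, aga-miR-2c-3p_2ss12TC21GA at 0.15 and tca-miR-14-3p at 0.20. tca-miR-14-3p was at 0.029 with the replicate block and at -0.38 to 0.17 with 1 library left out. dqu-miR-750-3p (0.01) was at -0.016 with DESeq2 size factors, -0.0013 with the authors' factors, -0.015 with DESeq2, -0.054 with only 1 d and 3 d, -0.038 with the replicate block and -0.13 to 0.25 with 1 library left out. With 1 library left out, lmi-miR-8-5p ranged from -0.038 to 0.23, PC-3p-31_242819 from -0.11 to 0.42 and tca-miR-7-5p_R-1 from -0.66 to 0.056.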
